A study of Drosophila melanogaster with 8 samples.

Results

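The 10 autophagy core genes described here are Atg1, Atg2, Atg5, Atg7, Atg8a, Atg8b, Atg9, Atg16, Atg18a and ref(2)P of Drosophila melanogaster. They were chosen by name, out of the 11982 genes that the platform annotation pairs with at least 1 probe set on its own, and each of the 10 was measured by exactly 1 probe set. Their transcripts were measured in the heads of Canton S females, a wild-type strain, which had been collected no later than 8 h after emergence and kept for 12 days at 12.5 °C with 14 h of light and 10 h of darkness. Females were dissected at that age and assigned by their ovaries to the diapause group (reproductive arrest) or the non-diapause group (egg development under way), with 4 arrays per group. Strain, temperature, light regime and age were therefore shared, and the groups differed in the state of the ovary. The number of heads behind an array and whether arrays of a group came from separate vials are not given in the sources used here, so a p-value here reflects how much these arrays scatter, and part of that scatter may be technical.

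Autophagy is the route by which a cell wraps part of its own cytoplasm in a double membrane, the autophagosome, and delivers it to the lysosome for breakdown. A kinase complex around Atg1 starts the process, vesicles with Atg9 and the lipid transfer protein Atg2, held at the site by the phosphoinositide-binding protein Atg18a, supply the membrane, and the ubiquitin-like protein Atg8a is coupled to lipid on that membrane by the enzymes Atg7, Atg5 and Atg16. In flies the fat body and the gut use autophagy in starvation and in development, and neurons need it to clear damaged proteins. Transcript levels do not measure the flux through this route, since much of its control lies in the proteins.

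Each value is a log2 expression value per probe set and array, on a scale that began at a floor of 2.16 and reached 15.7. In all, 18769 probe sets were tested, and 6410 of them never left the floor by more than 0.01. Correlations between arrays (Pearson's r over these probe sets) were 0.976 to 0.998. The defining genes of the labelled tissue were present. The photoreceptor genes trp, Arr2 and inaD and 3 of 4 measured neuronal genes were at 6 or more on every array, while the 4 measured ovary genes and the 5 male genes were below 6 on all of them. These markers do not show that the material was head alone, since many midgut protease genes were also well above the floor on most arrays. The source of their transcripts was not tested. A pair of arrays stood apart from the rest. On non-diapause 3 the mean of 11 midgut protease genes was 2.47, against 8.50 to 10.20 on the other arrays, and on diapause 3 the inducible heat shock genes Hsp26, Hsp27 and Hsp68, looked up after their values had been seen, were at 12.22, 11.79 and 11.54, against 7.64 to 8.58, 6.90 to 7.27 and 6.96 to 7.33 elsewhere. Results that rest on these arrays are given with and without them.

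Of the 10 core genes, 0 passed limma at a Benjamini-Hochberg adjusted p under 0.05, against 0% of all tested probe sets in either direction, and the adjusted p was 1 for each of them. At an unadjusted p under 0.05, 2 were lower in diapause heads (Atg9 and Atg18a) and 0 were higher. Over all tested probe sets these shares were 2.09% lower and 0.906% higher, and for the 7593 brighter probe sets, those averaging 6 or more over the arrays, they were 4.7% and 1.8%. Among the 9 members above the floor, 4 were higher and 5 were lower in diapause, with a median difference of -0.0063 on the log2 scale (diapause minus non-diapause), beside a median of 0.0039 over the brighter probe sets. The intervals were narrow. The 95% intervals of these 9 members stayed between -0.37 and 0.395, that is, between 0.774 and 1.31 times the level of non-diapause heads. Within groups the SD of a member was 0.058 to 0.209. In whole heads, fewer cells of a type and less RNA per cell cannot be told apart.

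**Figure D1:**
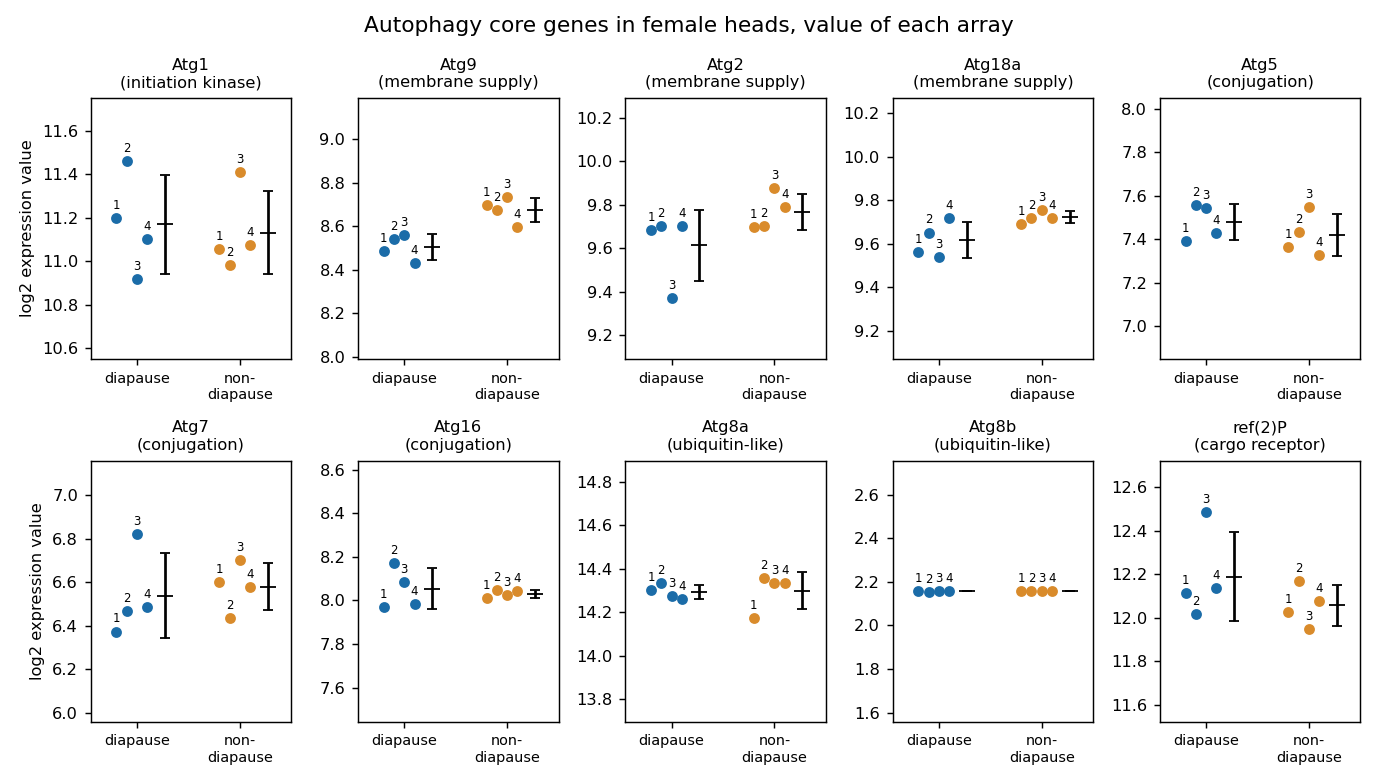
Log2 expression value (vertical axis, each panel spans the same range around the mean of its gene) of the 10 core genes on the 4 diapause arrays (blue) and the 4 non-diapause arrays (orange). Small digits are replicate numbers, and black marks are mean and SD. The groups are apart only for Atg9, and Atg8b lies at the floor.

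All 3 genes for membrane supply had lower means in diapause heads, and none passed the adjusted test. The direction was the same in all 12 alternative settings that can change a difference. Atg9, a membrane-spanning protein that travels on small vesicles to the growing autophagosome, was at 8.48, 8.54, 8.56 and 8.43 on diapause arrays 1 to 4, against 8.70, 8.67, 8.73 and 8.60 on non-diapause arrays 1 to 4. All diapause arrays lay below all non-diapause arrays, with a gap of 0.037 between the nearest pair. Atg9 averaged 8.50 ± 0.06 in diapause heads and 8.68 ± 0.06 in non-diapause heads (SD, 4 arrays per group), a log2 difference of -0.17 ± 0.04 (SE), which is -11.2% on the linear scale. In limma the unadjusted p was 0.00462, rank 72 of 18769 probe sets, and the adjusted p was 1. Atg9 was the 1 member whose groups did not overlap. Groups did not overlap for 1.44% of all tested probe sets in the direction of Atg9 and for 0.554% in the other, and for 3.17% and 1.15% of the brighter ones. With limma-trend and a robust prior the unadjusted p was 0.122. In limma without the dimmer probe sets it was 0.0221 among those averaging at least 4. Among those averaging at least 6 it was 0.0231.

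Atg2, a lipid transfer protein that channels lipid into the growing membrane, was at 9.68, 9.70, 9.37 and 9.70 in diapause heads, against 9.70, 9.70, 9.88 and 9.79 in non-diapause heads. Diapause 3 was far below the other diapause arrays, and the groups overlapped. The log2 difference was -0.15 ± 0.09 (SE; limma unadjusted p = 0.136), and it was -0.07 without diapause 3 and -0.034 without both diapause 3 and non-diapause 3. Atg18a, a WIPI protein that binds phosphatidylinositol 3-phosphate and acts with Atg2, was at 9.56, 9.65, 9.54 and 9.72 in diapause heads, against 9.69, 9.72, 9.76 and 9.72 in non-diapause heads. Diapause 4 lay within the range of the non-diapause arrays and the other 3 diapause arrays below it. The difference was -0.10 ± 0.04 (SE; limma unadjusted p = 0.0445), with a 95% interval of -0.21 to -0.0035. This p stayed under 0.05 in 5 of 18 alternatives. With single arrays left out it did so only without diapause 4, and it was 0.0974 without diapause 3 and 0.104 without non-diapause 3. It was 0.126 among probe sets averaging at least 4 and 0.129 among those averaging at least 6.

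**Figure D2:**
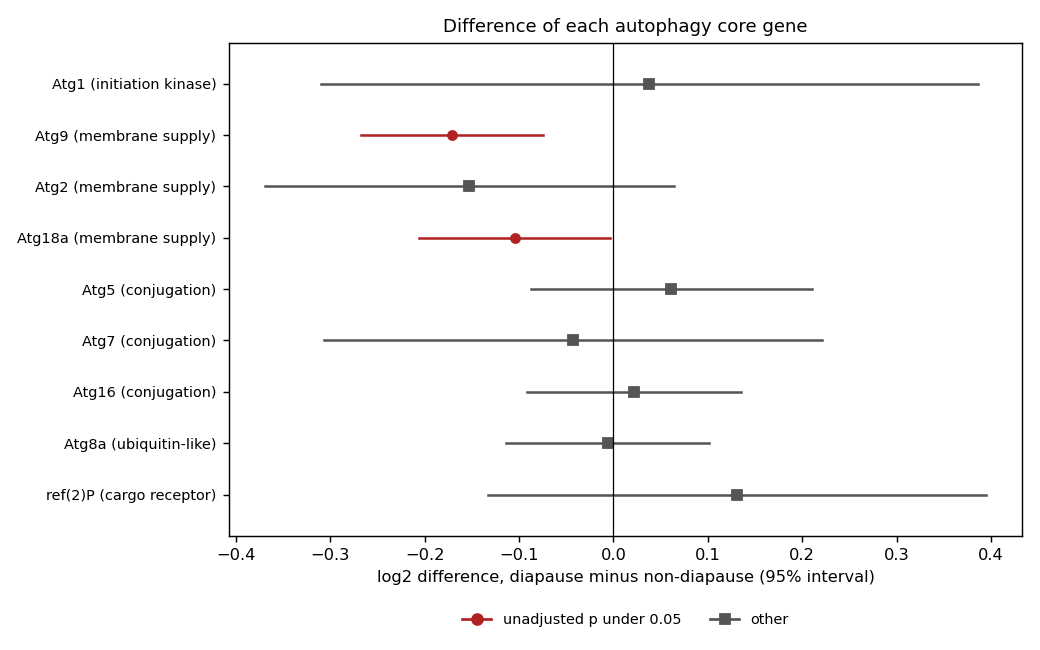
Log2 difference, diapause minus non-diapause (horizontal axis), of the 9 core genes above the floor, with its 95% interval from limma (lines). Red circles mark an unadjusted p under 0.05 (Atg9 and Atg18a) and grey squares the rest, and no gene passed the adjusted test.

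The genes that make the autophagosome mark differed little between the groups. Atg8a, the ubiquitin-like protein that is coupled to lipid and gathers cargo, was at 14.30, 14.33, 14.28 and 14.26 in diapause heads, against 14.17, 14.36, 14.33 and 14.33 in non-diapause heads. Only non-diapause 1 was apart from the others. The difference was -0.0063 with a 95% interval of -0.11 to 0.10. Atg8b, its second copy, which in flies is known mainly from the male germline, was within 0.01 of the floor on all 8 arrays, where values have no order. The male genes of the marker list (5 of 5 measured) were below 6 on every array as well, as were the ovary genes.

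The E1-like enzyme Atg7, which activates Atg8a and Atg12, was at 6.37, 6.47, 6.82 and 6.49 in diapause heads, against 6.60, 6.44, 6.70 and 6.58 in non-diapause heads. The highest value was that of diapause 3. The difference was -0.04 with an interval of -0.31 to 0.22, and -0.14 without diapause 3. Atg5, which is joined to Atg12, was at 7.39, 7.56, 7.54 and 7.43 in diapause heads, against 7.37, 7.43, 7.55 and 7.33 in non-diapause heads, a difference of 0.06 with an interval of -0.09 to 0.21. Atg16, the partner that carries the Atg5 conjugate to the membrane, was at 7.97, 8.17, 8.08 and 7.99 in diapause heads, against 8.01, 8.05, 8.02 and 8.05 in non-diapause heads, a difference of 0.02 with an interval of -0.09 to 0.14. For all 3 enzymes the groups overlapped.

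The kinase gene Atg1, whose product relays nutrient signals to the rest of the machinery, was at 11.20, 11.46, 10.92 and 11.10 in diapause heads, against 11.06, 10.98, 11.41 and 11.08 in non-diapause heads. Its spread was the widest of the core genes, with a difference of 0.04 and an interval of -0.31 to 0.39. Without both diapause 3 and non-diapause 3 the difference was 0.22 (limma unadjusted p = 0.109), and the remaining arrays of the groups, 3 against 3, did not overlap, as was so in that direction for 4.96% of all probe sets. The cargo receptor gene ref(2)P, the fly counterpart of p62, which binds ubiquitinated proteins and Atg8a and is itself broken down by autophagy, was at 12.11, 12.02, 12.48 and 12.14 in diapause heads, against 12.03, 12.17, 11.95 and 12.08 in non-diapause heads. Diapause 3 was the highest array and the rest overlapped. The difference was 0.13 with an interval of -0.13 to 0.39, and 0.033 without diapause 3.

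**Figure D3:**
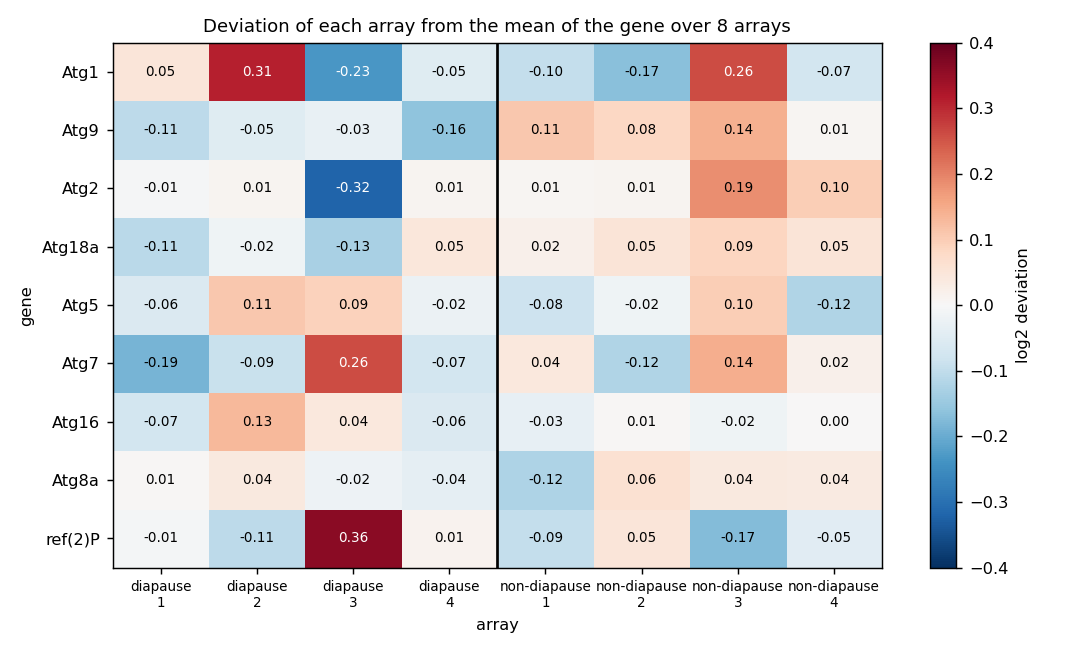
Deviation of each array from the mean of the gene over the 8 arrays, in log2 units (colour and printed value), for the 9 core genes above the floor (rows), with diapause arrays left and non-diapause arrays right of the line. Diapause 3 holds the lowest Atg2 (-0.32), Atg1 (-0.23) and Atg18a (-0.13) and the highest ref(2)P (0.36) and Atg7 (0.26).

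The core genes were not seen to vary together as one group, though 8 arrays can miss all but strong relations. Of 36 pairs among the 9 genes above the floor, 1 passed an exact permutation test over the 8 arrays after Benjamini-Hochberg adjustment (2-sided), that of Atg2 and Atg18a (Pearson's r = 0.80, exact p = 3.47e-04, adjusted 0.0125; Spearman's rho = 0.95, exact p = 0.00114, adjusted 0.0411). The test shuffled arrays across the groups, so its p also takes in the lower means of both genes in diapause. Within diapause arrays r was 0.68, within non-diapause arrays 0.89, and with the mean of each group subtracted 0.70. Over both groups r was 0.49 when the arrays farthest from the median of Atg2, diapause 3 and non-diapause 3, were left out. Leaving out the arrays at the ends of the range of Atg2 can lower r by itself. How far the relation rested on that pair of arrays was therefore not settled. Atg2 and ref(2)P ran in opposite directions (r = -0.93, exact p = 0.00866, adjusted 0.156; rho = -0.45, exact p = 0.267, adjusted 0.875), and r was -0.11 without the same pair of arrays. Atg1 and ref(2)P had r = -0.72 (exact p = 0.0351, adjusted 0.421; rho = -0.76, exact p = 0.0368, adjusted 0.662), with r = -0.70 when diapause 2 and non-diapause 3, the arrays farthest from the median of Atg1, were left out. The heat shock genes were high on diapause 3, where ref(2)P was highest and Atg1, Atg2 and Atg18a were lowest. The part of the heat shock genes in these values was not tested. The pairs share arrays and, through them, any difference in RNA composition.

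**Figure D4:**
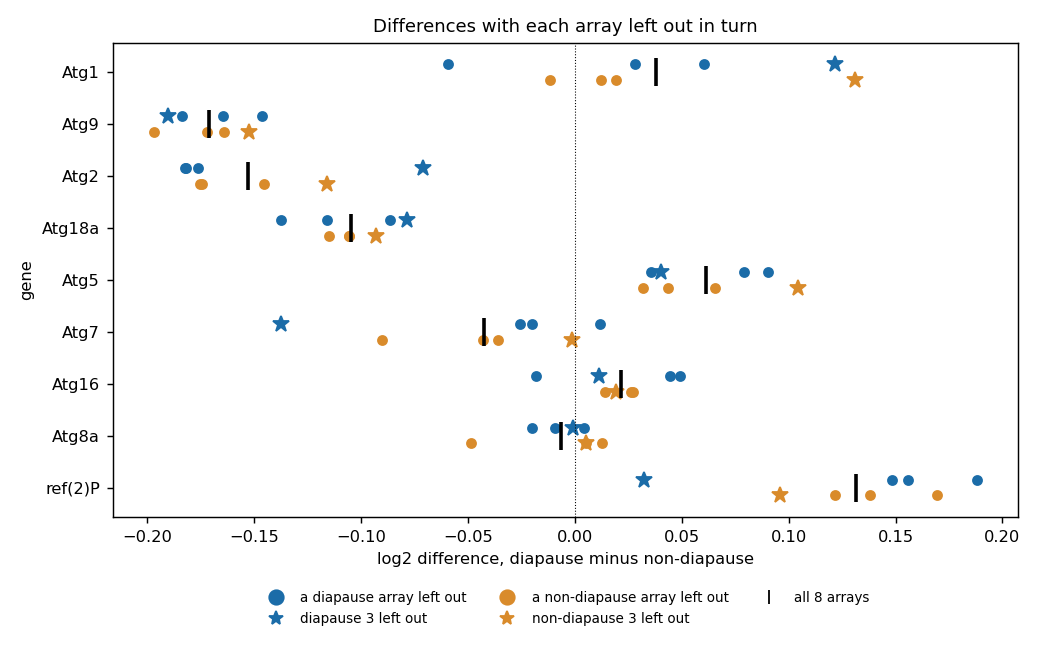
Log2 difference, diapause minus non-diapause (horizontal axis), of 9 core genes with all arrays (black bar) and with 1 array left out (blue, a diapause array; orange, a non-diapause array; stars, replicate 3 of either group). Atg9 stays between -0.20 and -0.15, while the differences of Atg2 (-0.07) and ref(2)P (0.033) lie nearest to 0 without diapause 3.

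The 5 genes most like Atg9 over the 8 arrays, by Pearson's r among 6372 genes averaging 6 or more, were the yolk protein gene Yp1 (r = 0.96), CG30431 (0.95), the neprilysin-like gene Nepl14 (0.94), Erasp (0.92) and Mob3 (0.91), with Spearman's rho from 0.90 to 0.95. They were picked as the closest of many, so these values are a description. All 5 were lower in diapause heads, with log2 differences of -0.07, -0.36, -0.31, -0.85 and -0.14. Their choice by likeness to Atg9 over the same arrays largely set this direction. Fat body markers had lower means in diapause heads, as Atg9 did, and none passed the adjusted test (the smallest limma adjusted p was 0.51, for Lsp2). The mean log2 value of the 6 fat body genes Yp1, Yp2, Yp3, Lsp2, fit and apolpp was 14.63 to 14.86 on diapause arrays, against 14.94 to 15.24 on non-diapause arrays, and 6 of 6 were lower in diapause. According to the paper, the making of yolk proteins in the fat body is inhibited in diapause. Yp1, Yp2 and Yp3 therefore do not by themselves measure the amount of that tissue. The muscle genes had higher means, with overlapping groups and a limma adjusted p of 1 for each. Their mean log2 value was 11.31 to 11.59 on diapause arrays, against 11.00 to 11.33 on non-diapause arrays, and 4 of 4 were higher in diapause. The part of fat body and muscle in the difference of Atg9 was not tested.

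Other genes of the pathway were listed by role, and 43 of the 48 listed had a probe set of their own. Of these, 0 passed the adjusted test, 3 were lower at a limma unadjusted p under 0.05, and 0 were higher. At that p, 2.09% of all tested probe sets were lower and 0.906% higher, and 4.7% and 1.8% of the brighter ones. By direction alone, 17 were higher and 25 lower in diapause among the 42 above the floor, with a median of -0.04. The 3 lower genes were 2 of 10 measured for fusion with the lysosome and 1 of 4 measured for the choice of cargo. Of these 4, 2 were higher and 2 lower in diapause, with log2 differences from -0.25 to 0.25. Snap29, a SNARE protein that fuses autophagosomes with lysosomes, was at 9.56, 9.51, 9.53 and 9.54 in diapause heads, against 9.57, 9.66, 9.68 and 9.63 in non-diapause heads (log2 difference -0.10 ± 0.03, SE; limma unadjusted p = 0.00707). The HOPS tether gene dor, which encodes the fly Vps18, was at 6.63, 6.39, 6.22 and 6.46 in diapause heads, against 6.67, 6.67, 6.86 and 6.73 in non-diapause heads (-0.31 ± 0.09, SE; limma unadjusted p = 0.0165). HDAC6, a deacetylase that binds ubiquitin and acts in the clearance of protein aggregates, was at 10.29, 10.12, 10.43 and 10.24 in diapause heads, against 10.57, 10.54, 10.46 and 10.50 in non-diapause heads (-0.25 ± 0.06, SE; limma unadjusted p = 0.00796). In all 3 the groups did not overlap, with gaps of 0.0087 for Snap29, 0.037 for dor and 0.036 for HDAC6 between the nearest arrays. With Epg5, 4 of the 43 genes had groups that did not overlap, all lower in diapause, against 1.44% of all probe sets and 3.17% of the brighter ones in that direction. The adjusted p was 1 for each. With limma-trend and a robust prior, the unadjusted p was under 0.05 for HDAC6 and for neither of the others. For Snap29 it was 0.0936 among probe sets averaging at least 4 and 0.0985 among those averaging at least 6. For dor the difference was -0.19 (limma unadjusted p = 0.0471) without both diapause 3 and non-diapause 3. In that setting 7 of the 43 genes had a limma unadjusted p under 0.05. Snap29, dor, HDAC6 and CtsL1 were lower in diapause, and Uvrag, Atg4b and bchs were higher. Of all tested probe sets, 2.49% were lower and 1.75% higher at that p without these arrays.

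With all 8 arrays, no unadjusted p among the other genes was under 0.05. In the initiation complex, Atg101 and Atg13, partners of Atg1, differed by 0.13 and -0.05. In the PI3-kinase complex, which makes the lipid that Atg18a binds, Atg14 and the regulatory kinase gene Vps15 differed by -0.16 and -0.15, and 4 of 5 measured members were lower. Among further conjugation genes, the E2-like enzyme gene Atg3 differed by -0.10 and the Atg8-cleaving protease gene Atg4b by 0.19, and Atg10 was at the floor. Epg5, a tether between autophagosome and lysosome, differed by -0.20 (interval -0.41 to 0.01) with groups that did not overlap, and the WIPI gene Atg18b by 0.08. Counting Snap29 and dor, genes for fusion with the lysosome were lower in 8 of 10 cases, the least of them by -0.00089. Their median was -0.06 and their range -0.31 to 0.13, beside a median of 0.0039 over the brighter probe sets. Counts by direction in this paragraph take in such differences near 0 and were not tested. Of the lysosomal genes, 4 of 7 were lower, among them the cathepsin gene cathD (-0.10), while the lysosomal efflux carrier gene spin was at 0.08. Of the upstream regulators, 5 of 6 were higher, the least of them by 0.0037. Tsc1, a brake on TOR, was at 0.11, and the energy sensor AMPKalpha was at -0.06. Apart from Snap29 and dor, the 95% intervals of the genes named in this paragraph included 0.

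**Figure D5:**
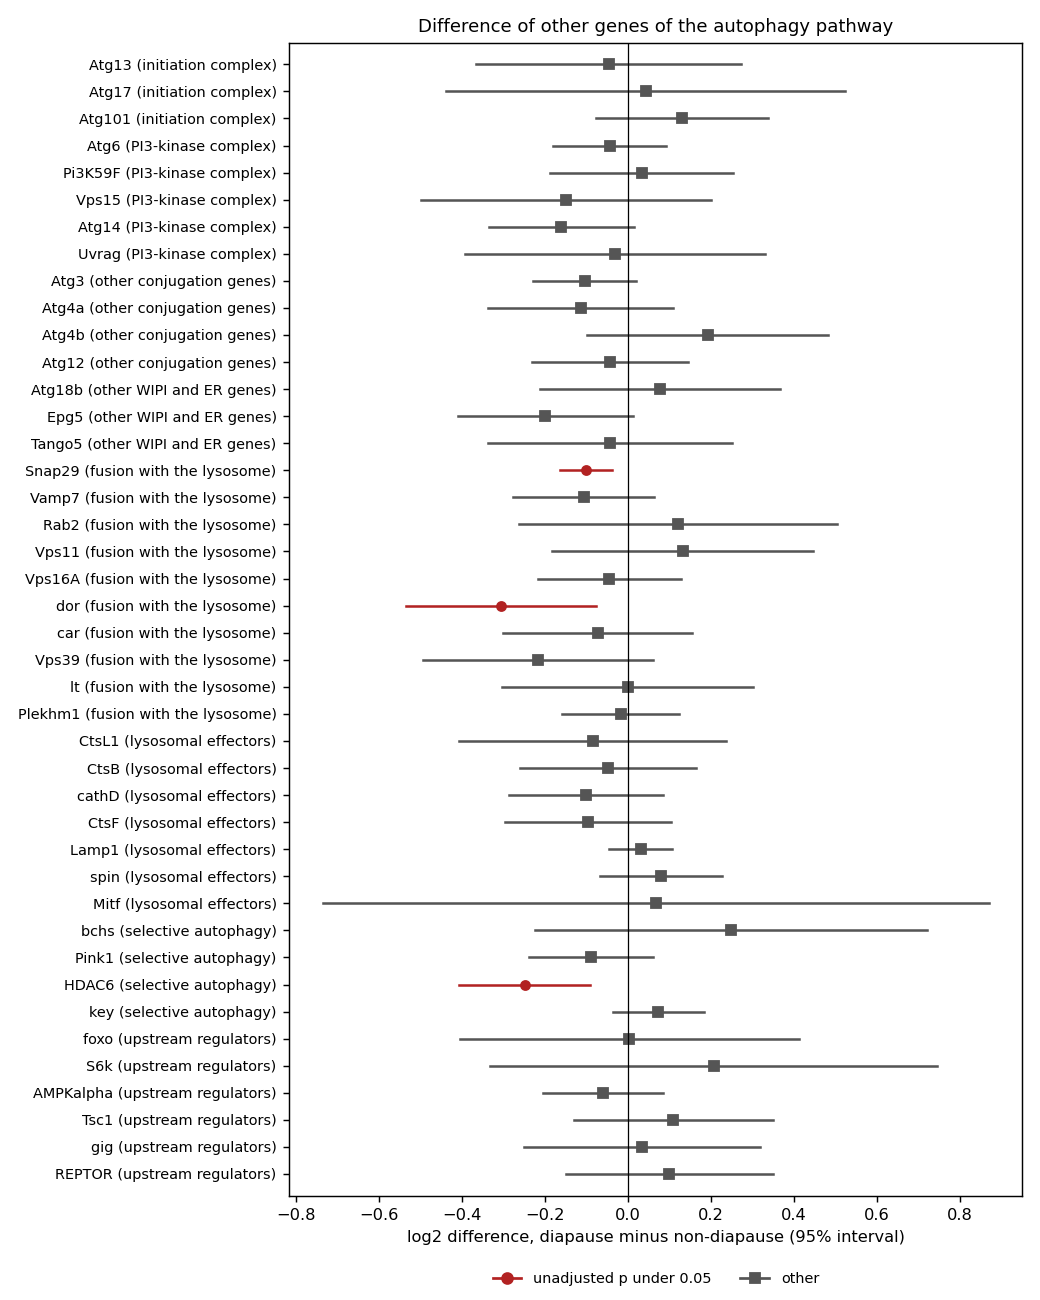
Log2 difference, diapause minus non-diapause (horizontal axis), with its 95% interval from limma (lines), of 42 further genes of the pathway, grouped by role, without Atg10, which lay at the floor. Red circles mark the 3 genes at an unadjusted p under 0.05 (Snap29, dor and HDAC6), all lower in diapause, and the median over the 42 genes was -0.04.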

How the data were processed

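RNA of female heads was hybridised to 8 one-colour Affymetrix Drosophila Genome arrays, with biotin-labelled cRNA from 6 µg of total RNA. The authors deposited log2 values made with GCRMA, per the submitters' processing notes (version not given in the sources used here), which corrects background by probe sequence, normalizes by quantiles and sets unexpressed probe sets to a common floor. Groups and replicate numbers came from the sample titles.

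All 8 arrays entered one linear model per probe set in limma (version 3.58.1, R version 4.3.3) with moderated 2-sided tests, over 18769 probe sets without the 183 AFFX controls, with Benjamini-Hochberg adjustment over all of them and a threshold of 0.05. The step was tested on simulated data. Genes were named through the platform annotation, without probe sets of several genes. Where a gene had several, the one with the highest mean was used. Of the 10 members, all matched 1 probe set.

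Named genes were the 10 members, of each other list all genes at an unadjusted p under 0.05 or else the 2 with the smallest p, and the 5 genes most like the member with the smallest p. Members and lists were chosen with earlier results of these data known, and the study lists Atg9 and HDAC6 from these arrays, so their p-values are no independent evidence. The unmatched listed genes of the pathway were Syx17, Rab7, park, Tor and TMEM41B.

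The fit was repeated with the replicate number as a block, with only probe sets averaging 4 or more, or 6 or more, with limma-trend, alone and with a robust prior, after quantile-normalizing again, after subtracting the median of each array, with weighted arrays, without each single array, without diapause 3 and non-diapause 3 together, and with the probe sets of a gene averaged.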

Additional observations from a re-analysis of the deposited data

Results flagged for a closer look

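Of 24 groups of 4 arrays examined for an array far from the rest, over the 9 members above the floor and the 3 further genes at an unadjusted p under 0.05, 2 held one, where chance alone would give 1.2. Atg2 on diapause 3 was 9.37, against 9.68 to 9.70 on the other diapause arrays. Atg8a on non-diapause 1 was 14.17, against 14.33 to 14.36 on the other non-diapause arrays, and the difference of Atg8a was -0.05 without that array (limma unadjusted p = 0.0511).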

How the results depend on the processing

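In each of the 18 alternatives 0 members passed the adjusted test and 0 were higher at an unadjusted p under 0.05, and Atg9 had a limma unadjusted p under 0.05 in 17. Its direction was the same in the 12 that can change a difference. The count of members lower at that p, 2 with the deposited values, was 1 with a replicate block, with a mean of at least 4, with a mean of at least 6, with array weights and without diapause 3 and non-diapause 3, and 0 with limma-trend and a robust prior. It was 1 to 2 with single arrays left out, being 2 only without diapause 4, and the gene that remained was Atg9 in each of these. Other autophagy genes at that p, in either direction, numbered 3 with the deposited values (all probe sets 3%). They numbered 1 with the robust prior (1.14%), 6 after a second quantile normalization (4.92%) and 7 after centring on array medians (5.83%). With array weights they numbered 5 (4.57%). Without diapause 3 and non-diapause 3 they numbered 7 (4.24%), with Uvrag, Atg4b and bchs higher. With single arrays left out they numbered 3 to 5, with 5 without diapause 2 (2.52%). Of these, spin, key and bchs were higher with all arrays. Of all probe sets, 2.09% were lower at that p with the deposited values, 4.02% after the second quantile normalization and 5.35% after centring. Centring gave all probe sets together a median of -0.06. Members whose groups did not overlap, an alternative added after the data were seen, numbered 3 after the second quantile normalization, 2 after centring, 2 without diapause 3 and non-diapause 3 and 1 to 3 with single arrays left out, with 2 without diapause 4 and 3 without non-diapause 1. Over all probe sets this share was 2% with the deposited values, 5.21% after the second quantile normalization, 3.45% after centring, 9.49% without diapause 3 and non-diapause 3, 2.91% without diapause 4 and 2.86% without non-diapause 1.

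Small differences turned their sign. After centring, Atg1 was -0.024, Atg5 -0.00020 and Atg16 -0.040. After the second quantile normalization Atg16 was -0.015 and Atg8a 0.012, and with array weights Atg16 was -0.028. Without diapause 3 and non-diapause 3 Atg8a was 0.011 and ref(2)P -0.0029. With single arrays left out the ranges were -0.059 to 0.13 for Atg1, -0.14 to 0.012 for Atg7, -0.018 to 0.049 for Atg16 and -0.049 to 0.013 for Atg8a. The cause of these changes was not tested.

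The replicate numbers were not found to pair the arrays. Deviations of same-numbered arrays correlated at -0.31, -0.62, -0.35 and 0.06, so the fit with the block is given only among the alternatives. It left 1 member (Atg9) and 2 other genes (Snap29 and HDAC6) at an unadjusted p under 0.05. The number of arrays limits the precision, and no depth applies to arrays.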
